A study of Mus musculus with 23 samples.

Results

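Lkb1 (Stk11) was targeted in these mice by 6 lentiviral vectors of a three-promoter design, here called triple vectors, out of 26 named vectors in the pool. They were taken by name as the triple vectors that carry Lkb1 guide 1 or Lkb1 guide 2 at the bU6, the mU6 or the hU6 promoter, with the inert guides Neo1 and NT at the other promoters. They are called bU6 guide 1, bU6 guide 2, mU6 guide 1, mU6 guide 2, hU6 guide 1 and hU6 guide 2 below. The rule uses vector names and no measured value, although results of these data were known when it was chosen. Together they marked 47232 of the 324982 tumours of named vectors, or 14.5%.

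Lkb1 is a serine/threonine kinase that phosphorylates and activates AMPK and the AMPK-related kinases, among them the salt-inducible kinases. It is a tumour suppressor of lung adenocarcinoma, and its loss accelerates the growth of lung tumours in mouse models. Cas9 cuts where a guide RNA directs it, and the repair of the cut can inactivate the gene. U6 promoters are transcribed by RNA polymerase III and are used to express guides, and a vector with several guides takes promoters of different species so that repeated sequence does not recombine.

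Each vector carried a designed identifier of 8 bases and a random barcode, and the sequence reads hold both, so that identifier and barcode together mark the clone grown from one infected cell. The identifiers are shown because every value below was assigned to a vector through them. They are written 5′ to 3′ as deposited, with all bases in capitals because all of them are read, and the vector name in full gives the guide at each promoter.
bU6 guide 1 (bU6-sgLkb1_1st-mU6-sgNeo1-hU6-sgNT): GCAATGCT
bU6 guide 2 (bU6-sgLkb1_2nd-mU6-sgNeo1-hU6-sgNT): AGACTCCT
mU6 guide 1 (bU6-sgNeo1-mU6-sgLkb1_1st-hU6-sgNT): CAACAAGC
mU6 guide 2 (bU6-sgNeo1-mU6-sgLkb1_2nd-hU6-sgNT): CTCTTCAC
hU6 guide 1 (bU6-sgNeo1-mU6-sgNT-hU6-sgLkb1_1st): ACACTCAC
hU6 guide 2 (bU6-sgNeo1-mU6-sgNT-hU6-sgLkb1_2nd): CAGACAGT
inert triple vector (bU6-sgNeo1-mU6-sgNT-hU6-sgNeo2): AATTGCCG
The 6 identifiers differed from each other at 3 to 8 of their 8 positions, bU6 guide 2 and hU6 guide 1 being the pair with 3. The barcode of 30 bases followed the pattern GCNNNNNTANNNNNGCNNNNNTANNNNNGC, with 10 fixed and 20 free positions. In the 21 mice compared, 10 member tumours in KT, 10 in KT_Cas9 and 1 in KTL_Cas9 mice shared their barcode with a tumour of another vector in the same mouse.

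The study concerned Lkb1 and the salt-inducible kinases (Siks) in lung tumour growth, and sequenced tumour barcodes in genomic DNA of tumour-bearing lungs after tumours had developed for 4 months (Tuba-seq, which reads clone number and size from barcode counts). KT mice carried R26LSL-Tomato and had no Cas9. KT_Cas9 mice carried H11LSL-Cas9 in addition, and KTL_Cas9 mice carried H11LSL-Cas9 and Lkb1flox/flox. The Tomato reporter was thus common to all groups, the strain was mixed BL6/129 throughout, and the labels give no age, sex or virus dose. The LSL alleles are silent, and the flox allele intact, until Cre acts in a cell. Neither the cutting of Lkb1 by the guides nor the recombination of the floxed allele was measured in these data.

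Of the labelled mice, 4 KT, 10 KT_Cas9 and 7 KTL_Cas9 mice were compared. Barcodes estimated at 500 cells or more were counted as tumours. The 6 vectors together marked 2952 to 7670 tumours per KT mouse (22576 in all), 293 to 8273 per KT_Cas9 mouse (21845) and 156 to 767 per KTL_Cas9 mouse (2811). The inert tumours of both inert vectors, against which sizes and numbers were taken, numbered 1496 to 3693, 125 to 4370 and 61 to 321 per mouse. Reads of named vectors per mouse ran from 936090 to 1505173, from 92713 to 4516887 and from 2181575 to 8547188. In the median mouse the floor of 500 cells stood for 5.77 reads among KT, 6.14 among KT_Cas9 and 18.5 among KTL_Cas9 mice, and the part of this difference in depth in the results was not tested. The log-normal mean size of inert tumours, averaged geometrically, was 2123 cells in KT, 1307 in KT_Cas9 and 38669 in KTL_Cas9 mice, which the ratios within a mouse divide out. The labels do not say which mice shared a litter, a virus batch or a sequencing run.

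Without Cas9 the 6 vectors lay close to the inert tumours in size. Size is the log-normal mean of a vector's tumours in a mouse, given as log2 of its ratio to the inert tumours of that mouse. In KT replicates 1, 2, 3 and 5 the ratio was -0.16, 0.09, -0.02 and -0.07 for bU6 guide 1 and 0.03, 0.06, 0.08 and -0.06 for bU6 guide 2. For mU6 guide 1 it was -0.10, -0.02, -0.09 and -0.07, and for mU6 guide 2 it was 0.02, 0.41, 0.09 and 0.12. Replicate 2 was the highest mouse for mU6 guide 2, and the other 3 mice lay within 0.12 of the inert tumours. For hU6 guide 1 the ratios were 0.09, 0.06, -0.02 and 0.10, and for hU6 guide 2 they were 0.15, 0.39, 0.18 and 0.27. The last vector was above 0 in 4 of 4 mice, with a mean of 0.25 ± 0.11 (SD, n = 4), and was the largest of the 6 in 3 of 4 mice. Under exact permutation of signs 0 of the 24 targeting vectors (0%) passed in KT mice. The smallest p that 4 mice allow is 0.125, so this test could not pass.

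With Cas9 and intact Lkb1, the size ratio to inert tumours was higher than without Cas9 for 5 of the 6 vectors. That of mU6 guide 2 did not pass the test. The inert tumours were themselves smaller in KT_Cas9 than in KT mice (1307 against 2123 cells), so a higher ratio need not mean more cells. Setting KT_Cas9 beside KT mice takes each vector's own background without Cas9 into account. Of all 24 targeting vectors, 14 were called higher (58.3%) and 0 lower (0%). The 14 include these 5, so the share over all vectors is not independent of the 6. The 6 had a median log2 difference of 0.76, and all 24 had one of 0.73. Values of KT_Cas9 and KT mice did not overlap for 3 of the 6 (bU6 guide 2, mU6 guide 1 and hU6 guide 1), as for 11 of the 24 (45.8%).

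Of the vectors with Lkb1 guides at the hU6 promoter, hU6 guide 1 had the highest mean of the 6. Its log2 ratio in the 10 KT_Cas9 mice had a lowest value of 0.28, a median of 1.33 and a highest value of 2.25. All 10 mice lay above all 4 KT mice. The difference was 1.21 ± 0.22 (SE, 10 and 4 mice), or 2.32-fold, with exact permutation adjusted p = 0.0160. For hU6 guide 2 the lowest, median and highest ratios were 0.23, 0.89 and 1.64. The lowest KT_Cas9 mice lay among the KT mice, all of which were above 0 for this vector. The difference was 0.69 ± 0.16 (SE), or 1.61-fold, with exact permutation adjusted p = 0.0295.

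At the bU6 promoter, bU6 guide 1 had a lowest ratio of -0.24, a median of 0.79 and a highest of 1.47 in KT_Cas9 mice. KT_Cas9 replicate 6 was the mouse below 0, and 9 of 10 mice were above. The difference from KT mice was 0.71 ± 0.17 (SE), or 1.64-fold, with exact permutation adjusted p = 0.0394. For bU6 guide 2 the lowest, median and highest ratios were 0.11, 1.06 and 1.35. All mice with Cas9 exceeded those without it. The difference was 0.87 ± 0.15 (SE), or 1.83-fold, with exact permutation adjusted p = 0.0160.

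At the mU6 promoter the guides stood apart. For mU6 guide 1 the lowest, median and highest ratios in KT_Cas9 mice were 0.23, 0.56 and 1.98, the last in replicate 9. No KT_Cas9 mouse overlapped the KT mice. The difference was 0.81 ± 0.17 (SE), or 1.76-fold, with exact permutation adjusted p = 0.0260. For mU6 guide 2 the lowest, median and highest ratios were 0.01, 0.16 and 0.48, with 10 of 10 mice above their own inert tumours. The KT mice covered nearly the same span. The difference was 0.03 ± 0.10 (SE), or 1.02-fold, with exact permutation adjusted p = 0.864. With the floor 3 times lower it was -0.11 (exact permutation adjusted p = 0.0461), so that its direction changed with the floor. The main floor stood for 3.13 reads in KT replicate 3 and 3.76 in KT_Cas9 replicate 10. No listed barcode had fewer than 2 reads. In these mice the lower floor thus fell below the read minimum, and the floor in cells differed between mice. The part of this in the change of direction was not tested.

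Within the KT_Cas9 mice alone, the 6 vectors all passed against the inert tumours by exact sign-flip permutation, where 18 of the 24 vectors were called larger (75%). That includes mU6 guide 2 at 0.19 ± 0.16 (SD, n = 10, exact permutation adjusted p = 0.00361), a ratio which the KT mice showed without Cas9 at 0.16 ± 0.17 (SD, n = 4). The calls of bU6 guide 1, mU6 guide 1 and hU6 guide 2 against KT mice were lost without any single KT mouse (exact permutation adjusted p from 0.0539 to 0.0959), and that of bU6 guide 1 also without KT_Cas9 replicate 2 or 3 (adjusted p = 0.0503 in each). With the floor 3 times lower the differences of bU6 guide 1 and hU6 guide 2 from KT mice were 0.30 and 0.26 and did not pass (exact permutation adjusted p = 0.118 and 0.216). This lower floor fell below the read minimum in some mice, as stated above. The calls of bU6 guide 2 and hU6 guide 1 passed with each mouse left out in turn.

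Relative to the inert triple vector alone, the 6 also all passed within KT_Cas9 mice, where 15 of the 24 vectors did (62.5%). That vector has the same design as the 6, with 2811 tumours in KT, 3188 in KT_Cas9 and 384 in KTL_Cas9 mice. On this scale, the ratio was higher in KT_Cas9 than in KT mice for 4 of the 6, where 13 of 24 vectors were called (54.2%). The log2 difference was 1.31 ± 0.24 (SE, exact permutation adjusted p = 0.0171) for hU6 guide 1 and 0.97 ± 0.19 (adjusted p = 0.0260) for bU6 guide 2. It was 0.91 ± 0.20 (exact permutation adjusted p = 0.0260) for mU6 guide 1 and 0.79 ± 0.19 (adjusted p = 0.0369) for hU6 guide 2. For bU6 guide 1 the difference of 0.81 ± 0.22 did not pass (exact permutation adjusted p = 0.0599), nor did that of mU6 guide 2, at 0.13 ± 0.11 (adjusted p = 0.351). The inert triple vector itself, set against the inert dual vector, had a log2 size ratio of 0.10 ± 0.07 (SD, n = 4) in KT, -0.03 ± 0.20 (SD, n = 10) in KT_Cas9 and 0.17 ± 0.76 (SD, n = 7) in KTL_Cas9 mice.

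The size gain lay in the upper tail. In KT_Cas9 mice the median tumour of the 6 vectors differed from the median inert tumour by mean log2 ratios of 0.04 for mU6 guide 2 to 0.18 for hU6 guide 1. In cells, the geometric mean over mice of the median tumour was 912 for hU6 guide 1 and 824 for mU6 guide 2, against 804 for inert tumours. A tumour of that size rests on few reads, so medians of different vectors were often the same read number and their ratio exactly 0. At the 75th percentile the mean log2 ratios of the 6 ran from 0.12 to 0.50, and at the 90th percentile from 0.23 to 1.47, mU6 guide 2 being lowest and hU6 guide 1 highest at each. Against KT mice 2 of the 6 passed by exact permutation on the 90th percentile, and 0 on the 75th percentile or the median.

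At the 95th percentile, which is the size that the largest 1 in 20 tumours exceed, hU6 guide 1 reached 3610 cells in its lowest KT_Cas9 mouse, 23799 in the median mouse and 141192 in the highest. The inert tumours of these mice reached 1923, 4277 and 7386 cells. In the 4 KT mice the 95th percentile of hU6 guide 1 lay between 7402 and 12782 cells and that of inert tumours between 7633 and 13645. The log2 ratio to inert tumours was 2.49 ± 1.31 (SD, n = 10) with Cas9 and -0.04 ± 0.06 (SD, n = 4) without it, a 5.75-fold difference (exact permutation adjusted p = 0.0144). The corresponding differences were 3.53-fold for bU6 guide 2, 3.29-fold for hU6 guide 2, 2.89-fold for mU6 guide 1 and 2.70-fold for bU6 guide 1. These 4 vectors passed as well (exact permutation adjusted p from 0.0240 to 0.0360), giving 5 of the 6, against 14 of 24 vectors in all (58.3%). For mU6 guide 2 the ratio was 0.24 ± 0.33 (SD, n = 10) with Cas9 and 0.17 ± 0.32 (SD, n = 4) without it, and the difference of 0.07 ± 0.19 (SE) did not pass (exact permutation adjusted p = 0.762).

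The 99th percentile was taken where a mouse had at least 100 tumours of the vector. In KT_Cas9 mice the mean log2 ratio there was 3.43 ± 1.76 (SD, n = 8) for hU6 guide 1 and the geometric mean ratio was 8.01-fold for bU6 guide 2 (log2 SD 2.01, n = 8). The value was 2.55 ± 1.46 (SD, n = 9) for hU6 guide 2, 2.54 ± 1.48 (SD, n = 8) for mU6 guide 1 and 2.32 ± 2.31 (SD, n = 8) for bU6 guide 1. Each of these was below 0 in 1 mouse. For mU6 guide 2 the ratio was -0.20 ± 0.58 (SD, n = 8), above 0 in 3 of 8 mice. The spread between mice widened from the median to the 99th percentile.

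The share of very large tumours shows the same tail as counts. In the pooled KT_Cas9 mice, 128 of 3286 tumours of hU6 guide 1 had at least 50000 cells (3.90%, exact 95% binomial interval 3.26% to 4.61%), against 36 of 11656 inert tumours (0.309%, 0.216% to 0.427%). For bU6 guide 2 it was 118 of 4021 (2.93%), for hU6 guide 2 it was 96 of 3403 (2.82%), for mU6 guide 1 it was 79 of 3447 (2.29%) and for bU6 guide 1 it was 82 of 3966 (2.07%). For mU6 guide 2 the share was 13 of 3722 (0.349%, exact 95% binomial interval 0.186% to 0.597%), and its interval overlapped that of the inert tumours. The intervals cover counting error only, since the tumours come from 10 mice of unequal number. In the pooled KT mice the shares of the 6 vectors ran from 0.339% to 0.525%, and that of the inert tumours was 0.341%. In the pooled KTL_Cas9 mice they ran from 11.8% for bU6 guide 1 to 17.7% for bU6 guide 2 and mU6 guide 1, with 14.9% for the inert tumours. Tumours of at least 500000 cells numbered 23 for hU6 guide 1, 22 for bU6 guide 2, 16 for mU6 guide 1, 14 for bU6 guide 1, 11 for hU6 guide 2 and 1 for mU6 guide 2 in KT_Cas9 mice. In KT mice there was 1 such tumour among the 6 vectors, of hU6 guide 2, and 0 of 11443 inert tumours. Inert tumours of that size numbered 5 of 11656 in KT_Cas9 mice.

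Guides and positions were compared in the same KT_Cas9 mice, where the inert tumours cancel from the difference. Of the 15 pairs among the 6 vectors 9 passed by exact sign-flip permutation, against 173 of 276 pairs of all targeting vectors (62.7%). Each of the 9 held hU6 guide 1, mU6 guide 2 or both, and the 6 pairs among the other vectors did not pass. Triple mU6 guide 2 was the lowest of the 6 in 8 of 10 mice, and hU6 guide 1 the highest in 5 of 10. Between them stood bU6 guide 1, bU6 guide 2, mU6 guide 1 and hU6 guide 2, whose mean differences from each other lay between -0.26 and 0.16.

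At the hU6 promoter guide 1 exceeded guide 2 by 0.33 ± 0.33 (SD, n = 10), in 9 of 10 mice (exact permutation adjusted p = 0.0135). Without Cas9 the order was the other way in 4 of 4 mice, at -0.19 ± 0.11 (SD, n = 4). The difference between the genotypes was 0.53 ± 0.12 (SE, exact permutation adjusted p = 0.0281), where 138 of 276 pairs were called (50%) and 4 of the 15 member pairs. At the mU6 promoter guide 1 exceeded guide 2 by 0.55 ± 0.61 (SD, n = 10), in 9 of 10 mice (exact permutation adjusted p = 0.00799). The same pair stood at -0.23 ± 0.14 (SD, n = 4) without Cas9, and the difference of 0.78 ± 0.21 (SE) just passed (exact permutation adjusted p = 0.04995). At the bU6 promoter guide 1 minus guide 2 was -0.22 ± 0.27 (SD, n = 10), above 0 in 3 of 10 mice (exact permutation adjusted p = 0.0582, not passing). In the 7 KTL_Cas9 mice guide 1 minus guide 2 was -0.82 ± 0.69 (SD) at hU6, above 0 in 0 of 7 mice. It was 0.10 ± 1.52 (SD, 4 of 7 above 0) at mU6 and -1.35 ± 1.37 (SD, 1 of 7) at bU6. These pairs were not tested in KTL_Cas9 mice.

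The difference between the guides itself differed between promoter positions in KT_Cas9 mice. Guide 1 minus guide 2 was larger at mU6 than at bU6 by 0.77 ± 0.69 (SD, n = 10), in 10 of 10 mice (exact sign-flip permutation adjusted p = 0.00586 over 3 pairs of positions). It was larger at hU6 than at bU6 by 0.55 ± 0.45 (SD, n = 10), in 8 of 10 mice (exact permutation adjusted p = 0.0117). Between hU6 and mU6 it differed by -0.22 ± 0.69 (SD, n = 10), above 0 in 4 of 10 mice (exact permutation adjusted p = 0.377). Set against KT mice, where the values were -0.17 and -0.13, the contrasts with bU6 were higher by 0.94 and 0.68 (exact permutation adjusted p = 0.0300 for each). In KTL_Cas9 mice the mean contrast of mU6 with bU6 was 1.46, above 0 in 6 of 7 mice. That of hU6 with bU6 was 0.53 (4 of 7 above 0) and that of hU6 with mU6 was -0.93 (3 of 7). These values in KTL_Cas9 mice were not tested. All 3 contrasts use the same 6 vectors, so they are not independent of each other.

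Between positions in KT_Cas9 mice, guide 2 gave larger tumours at hU6 and at bU6 than at mU6. Triple mU6 guide 2 minus hU6 guide 2 was -0.75 ± 0.53 (SD, n = 10), above 0 in 1 of 10 mice (exact permutation adjusted p = 0.00799). Triple bU6 guide 2 minus mU6 guide 2 was 0.71 ± 0.56 (SD, n = 10), above 0 in 8 of 10 mice (exact permutation adjusted p = 0.0135). For guide 1 the hU6 position exceeded both others within KT_Cas9 mice. Triple bU6 guide 1 minus hU6 guide 1 was -0.60 ± 0.48 (SD, n = 10), above 0 in 1 of 10 mice (exact permutation adjusted p = 0.00799). Triple mU6 guide 1 minus hU6 guide 1 was -0.53 ± 0.62 (SD, n = 10), above 0 in 2 of 10 mice (exact permutation adjusted p = 0.0415). Triple bU6 guide 1 minus mU6 guide 1 was -0.06 ± 0.55 (SD, n = 10), above 0 in 5 of 10 mice (exact permutation adjusted p = 0.792, not passing).

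Against KT mice, bU6 guide 2 minus mU6 guide 2 was higher with Cas9 by 0.84 ± 0.20 (SE, exact permutation adjusted p = 0.0431). For mU6 guide 2 minus hU6 guide 1 the change with Cas9 was -1.19 ± 0.25 (SE, adjusted p = 0.0304 by exact permutation). The other contrasts between positions did not pass against KT mice. For guide 1, bU6 minus hU6 changed by -0.50 ± 0.17 (SE, adjusted p = 0.121 by exact permutation) and mU6 minus hU6 by -0.40 ± 0.20 (SE, adjusted p = 0.333), the latter being below 0 in 4 of 4 KT mice already. For guide 2, mU6 minus hU6 changed by -0.66 ± 0.17 (SE, adjusted p = 0.0613 by exact permutation). The 4 pair calls against KT mice were lost without any single KT mouse, and 2 pairs were called without KT_Cas9 replicate 1, 2, 3, 4, 7 or 8.

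The same promoter and guide also occurred in dual vectors, which carry the mU6 and hU6 promoters and no bU6 promoter. Dual mU6 guide 2 had a log2 size ratio of 0.89 ± 0.41 (SD, n = 10) in KT_Cas9 mice, against 0.19 ± 0.16 for its triple counterpart. The dual vector was larger in 9 of 10 mice, by 0.70 ± 0.46 (SD, exact sign-flip permutation adjusted p = 0.00799), and by 0.82 ± 0.17 (SE) more than in KT mice (exact permutation adjusted p = 0.0217). Dual mU6 guide 1 exceeded the triple vector in 10 of 10 mice, by 0.69 ± 0.57 (SD, n = 10, exact permutation adjusted p = 0.00586). It did so by 0.16 ± 0.04 (SD, n = 4) without Cas9, and the difference of 0.52 ± 0.18 (SE) between the genotypes did not pass (exact permutation adjusted p = 0.164). At hU6 the test did not separate the designs. Dual minus triple was 0.24 ± 0.44 (SD, n = 10, 7 of 10 mice above 0, exact permutation adjusted p = 0.172) for guide 1 and -0.19 ± 0.36 (SD, n = 10, 2 of 10 mice above 0, exact permutation adjusted p = 0.179) for guide 2. Set against KT mice, neither passed (exact permutation adjusted p = 0.231 and 0.768).

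Tumour number did not pass for any of the 6 vectors in KT_Cas9 against KT mice. Number is given as log2 of the tumours of a vector per inert tumour of the same mouse. In KT mice it ran from -1.77 ± 0.07 (SD, n = 4) for mU6 guide 1, or 0.293 tumours per inert tumour, to -1.44 ± 0.08 (SD, n = 4) for bU6 guide 2, or 0.368. In KT_Cas9 mice it ran from -1.73 ± 0.24 (SD, n = 10) for hU6 guide 1 to -1.42 ± 0.25 (SD, n = 10) for bU6 guide 2. The differences lay between -0.12 ± 0.08 (SE) for hU6 guide 1 and 0.13 ± 0.12 (SE) for mU6 guide 1. Of the 6, 0 passed by exact permutation (with 0 under 0.05 before adjustment and 0 in edgeR without further scaling), as 0 of the 24 vectors did in either direction (0%). In edgeR with TMM scaling, hU6 guide 1 passed as lower, at -0.19 (adjusted p = 0.0251), where 5 of the 24 vectors were called. Pairs of vectors did not separate in number either, with 0 of 276 pairs called against KT mice (0%) by exact permutation, and 0 of the 15 member pairs.

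The number depended on the size floor. With a floor of 5000 cells, which counts only larger tumours, the number ratio was higher in KT_Cas9 than in KT mice by log2 0.70 for bU6 guide 1, 1.05 for bU6 guide 2, 0.76 for mU6 guide 1, 0.85 for hU6 guide 1 and 0.69 for hU6 guide 2. It was -0.02 for mU6 guide 2. These did not pass (exact permutation adjusted p from 0.0571 to 0.0734 for the former 5), with 6 KT_Cas9 mice left by the minimum of 20 inert tumours. The higher ratios do not mean a larger share of such tumours. Over all mice pooled, the share with at least 5000 cells ran from 11.2% to 15.0% for the 6 vectors in KT mice. In KT_Cas9 mice it ran from 6.80% to 11.9% and was lower for each vector. For inert tumours it was 11.6% in KT and 5.92% in KT_Cas9 mice.

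In KTL_Cas9 mice, whose Lkb1 is floxed, 0 of the 6 vectors passed in size against KT mice by exact permutation (1 under 0.05 before adjustment). Of all 24 vectors 0 passed in either direction by this test (0%). The smallest p that 330 splits of the mice allow is 0.00303. EdgeR on reads took the summed tumour reads of a vector against those of the inert vectors, which combine number and size. It called 0 of the 6 and 5 of the 24. In limma on the size ratios 0 of the 6 and 3 of the 24 were called. The geometric mean over mice of the log-normal mean size lay between 20091 cells (bU6 guide 1) and 51314 cells (bU6 guide 2) for the 6 vectors, with the inert tumours at 38669 cells. There were 21 to 181 tumours per vector and mouse, and the SD between mice was wider than in KT_Cas9 mice for 5 of the 6 vectors, the exception being hU6 guide 2 at 0.39 against 0.48.

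Lowest, median and highest log2 ratios in the 7 KTL_Cas9 mice were -1.73, -1.17 and 0.10 for bU6 guide 1, below 0 in 6 of 7 mice. The mean was -0.94 ± 0.70 (SD, n = 7), and the difference from KT mice was -0.91 ± 0.27 (SE, exact permutation p = 0.0424, adjusted p = 0.170). For hU6 guide 1 they were -2.30, -0.57 and 0.43, above 0 in 2 of 7 mice. The mean was -0.66 ± 0.92 (SD, n = 7), and the difference from KT mice was -0.72 ± 0.35 (SE, exact permutation adjusted p = 0.324). For bU6 guide 2 they were -1.47, 0.57 and 1.40, above 0 in 5 of 7 mice. For mU6 guide 1 they were -1.25, 0.25 and 1.83, also above 0 in 5 of 7. Mice on both sides of 0 were thus found for each vector. For mU6 guide 2 they were -1.04, -0.03 and 1.23, and for hU6 guide 2 they were -0.35, 0.24 and 0.54. The differences of these last 4 vectors from KT mice lay between -0.10 ± 0.33 (SE) for mU6 guide 2 and 0.38 ± 0.40 (SE) for bU6 guide 2 (exact permutation adjusted p from 0.823 to 0.860). At the 95th percentile 0 of the 6 passed, where 3 of the 24 vectors were called higher (12.5%) and 0 lower (0%).

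Size ratios were then set side by side in mice with floxed and with intact Lkb1, both with Cas9. This comparison shares its KT_Cas9 and KTL_Cas9 mice with the comparisons above, so the 3 comparisons are not independent. The ratio was lower in KTL_Cas9 mice for 3 of the 6 vectors, where 8 of the 24 vectors were called lower (33.3%) and 1 higher (4.17%). The 6 had a median log2 difference of -0.68, and all 24 had one of -0.18. For hU6 guide 1 the difference was -1.94 ± 0.41 (SE, exact permutation adjusted p = 0.00185), for bU6 guide 1 it was -1.62 ± 0.31 (adjusted p = 0.00123) and for hU6 guide 2 it was -0.78 ± 0.21 (adjusted p = 0.0113). Values of the genotypes overlapped for all 3. The highest KTL_Cas9 mice reached the range of KT_Cas9 mice, and for hU6 guide 2 the median KTL_Cas9 mouse, at 0.24, did so too. The call of hU6 guide 2 was lost with the floor 3 times lower, at -0.35 (exact permutation adjusted p = 0.164), and on the 75th percentile, at -0.44 (adjusted p = 0.0687). The lower floor fell below the read minimum in some KT_Cas9 mice.

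The other 3 did not pass in this test. The difference was -0.58 ± 0.40 (SE, exact permutation adjusted p = 0.228) for mU6 guide 1, -0.49 ± 0.43 (adjusted p = 0.314) for bU6 guide 2 and -0.13 ± 0.32 (adjusted p = 0.732) for mU6 guide 2. Without KTL_Cas9 replicate 3, mU6 guide 1 passed at -0.85 (exact permutation adjusted p = 0.0190). At the 95th percentile 5 of the 6 were lower, where 9 of the 24 were called (37.5%), and the exception was again mU6 guide 2 (-0.20 ± 0.28 SE, exact permutation adjusted p = 0.529). Against the inert triple vector alone hU6 guide 1 (-2.07 ± 0.51 SE), bU6 guide 1 (-1.75 ± 0.38 SE) and hU6 guide 2 (-0.91 ± 0.28 SE) passed (exact permutation adjusted p = 0.00206, 0.00247 and 0.0217), where 8 of the 24 were called lower (33.3%).

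In number, mU6 guide 2 was higher in KTL_Cas9 than in KT_Cas9 mice by 0.31 ± 0.09 (SE, exact permutation adjusted p = 0.0469), or 1.24-fold, where 2 of the 24 vectors were called higher (8.33%) and 0 lower (0%). It was -1.32 ± 0.19 (SD, n = 7) against -1.63 ± 0.18 (SD, n = 10). The call was lost against the inert triple vector alone, at 0.12 (exact permutation adjusted p = 0.947), where 0 of the 24 were called (0%). It was also lost without KTL_Cas9 replicate 2, 3, 5, 6 or 7 and without any KT_Cas9 mouse other than replicates 2 and 5 (exact permutation adjusted p from 0.0703 to 0.118). Without KT_Cas9 replicate 2, 5 of the 6 were called higher, from 0.28 for bU6 guide 2 to 0.42 for hU6 guide 2 among those added. The count over all 24 vectors was not kept at this setting. Against KT mice 0 of the 6 passed in number by exact permutation (2 under 0.05 before adjustment, mU6 guide 2 at 0.35 ± 0.09 SE and hU6 guide 2 at 0.36 ± 0.08 SE, each with adjusted p = 0.0970), as for 0 of the 24 (0%). In edgeR hU6 guide 2 passed there, at 0.39 (adjusted p = 0.0286), where 6 of the 24 vectors were called. With TMM scaling it passed at 0.24 (edgeR adjusted p = 0.0452), where 10 of the 24 were called.

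Mouse by mouse, the median log2 size ratio over the 6 vectors ran from 0.02 to 0.08 in KT mice, from 0.28 to 1.41 in KT_Cas9 mice and from -0.91 to 0.20 in KTL_Cas9 mice. KT_Cas9 replicates 5, 6 and 10 had medians of 0.35, 0.28 and 0.29, and the other 7 mice had medians of at least 0.68. The low mice differed in depth, with 218542, 521279 and 3169110 reads and 2013, 5693 and 56334 tumours. The gap between the largest and the smallest of the 6 ratios in a mouse ran from 0.28 to 0.44 in KT, from 0.50 to 1.97 in KT_Cas9 and from 0.81 to 3.19 in KTL_Cas9 mice. Over the 10 KT_Cas9 mice, ratios of the 15 pairs of vectors correlated with Pearson's r from -0.43 to 0.90 (median 0.51), and over the 7 KTL_Cas9 mice from -0.44 to 0.72 (median -0.01). These correlations are descriptions, since all vectors of a mouse share its inert tumours and its depth.

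The 6 vectors held 14.3% to 15.0% of the tumours of a KT mouse, 13.4% to 17.5% of those of a KT_Cas9 mouse and 14.5% to 17.7% of those of a KTL_Cas9 mouse. Of the estimated tumour cells they held 13.7% to 16.6% in KT mice, 8.32% to 23.4% in KT_Cas9 mice and 7.35% to 15.0% in KTL_Cas9 mice. The median mouse had 14.7% of cells in the 6 vectors in KT as in KT_Cas9 mice. The other vectors of the pool include ones that were also called larger, so these shares are relative to the whole pool.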

How the data were processed

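The authors sequenced tumour barcodes in lung DNA. The deposited table gives a read count (whole numbers, not normalised) per mouse, vector identifier and barcode. Per the file headers it also holds, for each mouse, a ratio (cells that a read stands for) and an estimated cell number (unit signal) equal to count times ratio. That deposited ratio is 500000 over the mouse's entry in a further column of reads. The read processing is not given in the sources used here. PCR reads without molecular identifiers are not independent molecules, so errors are those between mice.

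Repeated lines (105870, all of KT replicate 2) were dropped. KT replicate 4 was not analysed here, and KTL_Cas9 replicate 1, with 0 inert tumours and 0 member tumours among 17, was left out. Lines without a vector name (1.76% of reads) were left out. Mice were numbered in record order, since the labels give no replicate numbers. In KT, KT_Cas9 and KTL_Cas9 mice 1.15%, 1.63% and 1.96% of member tumours had a barcode seen in more than 1 mouse for that vector, and they were kept.

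Size needed 5 tumours per vector, and a mouse 20 inert tumours. Group differences were tested by two-sided exact permutation of mice and differences within mice by exact sign-flip permutation, with Benjamini-Hochberg adjustment over all 24 targeting vectors, all 276 pairs or 3 contrasts, at 0.05 (Python 3.11.15, scipy 1.17.1). Permuting labels assumes groups of equal spread, and KTL_Cas9 mice varied more. Alternatives were percentiles, other floors, at least 10 reads, at least 20 tumours, no shared barcodes, the inert triple vector alone, each mouse left out, edgeR 4.0.16 and limma 3.58.1. Those on ranges of title numbers and for the contrasts of position were chosen after seeing the data. The size tests between groups were run on simulated tumours drawn from the inert tumours of each mouse, with the same fold in every mouse. That simulation holds no spread of an effect between mice, and no result rests on it. All 6 members are named in every comparison, and of other vectors only inert and matching dual Lkb1 vectors. Members and tests were chosen with earlier results of these data known. Guide sequences, genome positions and a further allele that all groups shared are not reported here.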

Additional observations from a re-analysis of the deposited data

Results flagged for a closer look

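In KT_Cas9 replicate 2 the number ratio stood far above the other 9 mice for 4 of the 6 vectors. It was -0.41 for bU6 guide 1, with the next mouse at -1.23, and -0.80 for bU6 guide 2, with the next at -1.28. It was -0.78 for mU6 guide 1, with the next at -1.31, and -0.28 for hU6 guide 2, with the next at -1.69. This mouse had 125 inert tumours, the fewest of the KT_Cas9 mice, and 92713 reads of named vectors, also the fewest. The 4 ratios share those inert tumours, and the part of depth was not tested. Among 36 groups of values examined 4 had such a mouse, and chance gives about 1 in 20.

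The size ratio differed between KTL_Cas9 and KT_Cas9 mice by exact permutation for bU6 guide 1 (-1.62), hU6 guide 1 (-1.94) and hU6 guide 2 (-0.78). The number ratio differed for mU6 guide 2 (0.31).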

How the results depend on the processing

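Counts of the 6 vectors called moved as follows, and the cause was not tested. Fewer mice were left with the floor of 5000 cells, in the ranges of title numbers and with a mouse left out. The floor 3 times lower fell below the minimum of 2 reads in some KT and KT_Cas9 mice. In cells it was therefore not equal between mice. In size, KT_Cas9 against KT (5 at the main setting) gave 2 on the 90th percentile, 0 on the 75th percentile and 0 on the median. It gave 3 higher and 1 lower with the floor 3 times lower, and 2 to 5 with a mouse left out. With the 5 KT_Cas9 mice of lower title numbers it gave 0. With the 5 of higher title numbers only hU6 guide 2 lost its call (0.62, exact permutation adjusted p = 0.0586). KTL_Cas9 against KT_Cas9 (3) gave 5 on the 95th and 90th percentiles and with the floor 3 or 10 times higher. It gave 1 on the median, 2 with the floor 3 times lower or on the 75th percentile, and 3 to 4 with a mouse left out. In edgeR on summed reads, which combine number and size, it gave 5. KTL_Cas9 against KT (0) gave 1 without shared barcodes. In number, KTL_Cas9 against KT (0) gave 2 with the floor 3 times lower and without shared barcodes and 1 in edgeR with or without TMM, and KT_Cas9 against KT (0) gave 1 in edgeR with TMM. KTL_Cas9 against KT_Cas9 (1) gave 6 with the floor 3 times lower, 0 with it 3 times higher, 3 with it 10 times higher, 0 at 10 or more reads, with the inert triple vector alone, with the lower title numbers and in edgeR with or without TMM, and 0 to 5 with a mouse left out. Member pairs within KT_Cas9 mice (9) gave 0 on the 75th percentile, the median and with the floor 10 times higher, and 6 to 9 with a mouse left out. Pairs against KT mice (4) gave 0 on the 90th and 75th percentiles and the median, 2 with the floor 3 times higher, at 10 or more reads and without shared barcodes, and 0 to 6 with a mouse left out. Contrasts of position (2) gave 0 on the 75th percentile, the median and with the floor 10 times higher, 1 with it 3 times lower, and 2 with each mouse left out. Counts over all 24 vectors were kept only for the main setting, the 95th percentile, the inert triple vector alone, edgeR and limma. At other settings they were not kept, so counts of the 6 are given there without the share over all vectors. For KTL_Cas9 against KT_Cas9, edgeR called 9 of the 24 on reads, 3 on numbers and 8 on numbers with TMM.

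The sign of a called value changed for mU6 guide 2 in size against KT mice with the floor 3 times lower (-0.11, exact permutation adjusted p = 0.0461). That floor fell below the read minimum in some mice. The sign also changed in number of KTL_Cas9 against KT_Cas9 mice with the floor 10 times higher. This held for bU6 guide 1 (-0.76), bU6 guide 2 (-0.77) and hU6 guide 1 (-0.91). Among 666 values called in neither setting, 68 changed sign. No paired analysis was possible because the labels give no replicate numbers to pair mice of different groups, and only vectors of the same mouse were paired.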
